A study of Homo sapiens with 9 samples.

Results

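The COUP transcription factors NR2F1 (COUP-TFI), NR2F2 (COUP-TFII) and NR2F6 (EAR2) and the testicular receptors NR2C1 (TR2) and NR2C2 (TR4) are relatives of TLX in the NR2 subfamily of nuclear receptors. They were taken by gene symbol as 5 of the 27548 rows of an RNA sequencing table of MDA-MB-231, a long-established line of human triple-negative breast cancer. All 5 symbols were found, each on 1 row, and in all 5 the mean log2 CPM, the log2 of reads scaled to the size of the library, reached 1. The first group was MDA-MB-231 cells overexpressing TLX, the product of NR2E1, given an siRNA against TLX (TLX+siTLX, libraries S7 to S9). The second was TLX-overexpressing cells given a universal negative control siRNA (libraries S4 to S6, TLX+siCTL). The third was control cells given that control siRNA (libraries S1 to S3, CTL+siCTL). All groups were transfected for 48 h. The sources used here do not state how TLX was overexpressed, whether the line is a clone, or the siRNA sequences. The labels do not state that the 3 libraries of a group came from separate cultures, so each p-value reflects only how far these samples spread, and that spread may be technical.

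Nuclear receptors are transcription factors with a DNA-binding domain of paired zinc fingers and a domain that can hold a ligand and recruits cofactors. The NR2 receptors named here are orphan receptors or were named so: they bind repeats of a hexamer half-site, often alone or with a retinoid X receptor, and act as repressors or activators according to the cofactors bound. COUP-TFs are known for roles in blood vessel, neural and mesenchymal development, and TR2 and TR4 for fetal globin repression and lipid metabolism. In breast cancer cells COUP-TF levels are known to vary with estrogen receptor status.

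The part of a nuclear receptor that reads the half-site is the P box, a short stretch of the first zinc finger. The coding bases of that finger are shown for the 5 members and for TLX. Each is 69 bases of a GENCODE 29 transcript on GRCh38, 5′ to 3′ on the coding strand, with the 18 bases of the P box in capitals.
NR2F1: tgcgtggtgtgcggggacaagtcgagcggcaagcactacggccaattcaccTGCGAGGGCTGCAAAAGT
NR2F2: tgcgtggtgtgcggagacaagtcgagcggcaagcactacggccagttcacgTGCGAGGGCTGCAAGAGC
NR2F6: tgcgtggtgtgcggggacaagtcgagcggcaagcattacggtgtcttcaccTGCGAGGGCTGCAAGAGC
NR2C1: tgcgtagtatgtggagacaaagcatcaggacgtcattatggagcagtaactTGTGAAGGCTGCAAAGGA
NR2C2: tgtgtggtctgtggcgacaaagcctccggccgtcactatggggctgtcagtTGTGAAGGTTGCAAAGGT
NR2E1: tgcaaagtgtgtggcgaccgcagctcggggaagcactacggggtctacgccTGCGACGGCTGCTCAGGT
NR2F1 and NR2F2 differed at 5 of the 69 bases, and NR2F6 differed from each of them at 7. NR2C1 and NR2C2 differed from each other at 14 bases and from the COUP-TFs at 24 to 27. NR2E1 differed from the 5 members at 25 to 30 bases, of which 4 to 6 lay in the P box. The likeness of these fingers bears on whether reads can be told apart between the genes. Of the 4331 different 31-base words in NR2F1 transcripts, 10 were also found in NR2F2 or NR2F6 transcripts, 5 in each. NR2C1, NR2C2 and NR2E1 shared 0 such words with any of the other genes shown. With genes not shown, NR2C1 shared 100 of its 6855 words (1.46%) and NR2C2 139 of 11895 (1.17%), while NR2F2 shared 17 and NR2F1 1. Words were compared on the transcript strand only, so overlap with genes on the opposite strand was not counted.

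The libraries had effective sizes of 73.8 to 91.8 M reads, which put 384 to 1989 estimated reads per library on NR2F1, the member with the fewest, and 7516 to 9474 on NR2C2. S9 and S7 lay furthest from the other libraries of their group, with a root mean square difference in log2 CPM of 0.213 and 0.197, against at most 0.172 for the other 7. NR2E1 itself went with the labels: its log2 CPM was -2.61, -3.40 and -1.77 in TLX+siTLX, 0.28, -0.84 and 0.23 in TLX+siCTL, and -4.59, -4.28 and -4.50 in CTL+siCTL. The line's markers VIM, CD44, AXL, CAV1 and MSN had means of 7.99 to 10.5 but differed between the groups. In TLX+siCTL against CTL+siCTL, 3 of the 5 were higher, AXL (log2 fold change 1.13), CAV1 (0.96) and CD44 (0.46), and VIM was lower (-0.64). All 5 were higher in TLX+siTLX than in TLX+siCTL, by 0.25 for MSN to 0.99 for CAV1. In TLX+siTLX against CTL+siCTL, 4 were higher, with CAV1 at 1.95 and AXL at 1.42. Of the hormone receptor genes and ERBB2, ESR1 averaged -2.31, -2.58 and -2.39, PGR -1.40, -2.37 and -0.15, and ERBB2 6.41, 6.39 and 6.17 in TLX+siTLX, TLX+siCTL and CTL+siCTL. PGR was lower in TLX+siCTL than in CTL+siCTL (limma adjusted p = 0.0196), at a low mean log2 CPM of -1.31. Its control libraries were spread, at -0.84, -0.76 and 1.14. ERBB2 was higher in TLX+siCTL (0.22) and in TLX+siTLX (0.24) than in CTL+siCTL. The titles of the control samples carry the word PC3, which is also a prostate line's name and which no label explains. Of the prostate markers reported here, KLK2, KLK3, FOLH1 and HOXB13 had group means at or below -3.72, and TMPRSS2 lay at -0.53 to 0.25. These values were not set against a sample of the prostate line, so they cannot tell the lines apart. Of 3 luminal markers, FOXA1 was at or below -2.32. SPDEF averaged 3.48, 3.19 and 5.45, and GATA3 averaged 4.24, 3.30 and 2.37, in the same groups. The part of these differences between the cells in the results on the receptors was not tested.

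The COUP-TFs moved apart. NR2F1 was lower and NR2F2 higher in the TLX-overexpressing cells than in control cells, after either siRNA, while NR2F6 passed the threshold of the test in no comparison. NR2F1 (ENSG00000175745) lies on GRCh38 chromosome 5, 93583224 to 93594615, plus strand, and encodes a repressor and activator best known from brain and eye development. Its log2 CPM was 2.98, 2.91 and 2.92 in TLX+siTLX, 2.68, 2.40 and 2.28 in TLX+siCTL, and 4.62, 4.49 and 4.46 in CTL+siCTL. Every TLX-overexpressing library was below every control library, and every TLX+siTLX library was above every TLX+siCTL library. Set against control cells, NR2F1 was 4.20-fold lower in TLX+siCTL, a log2 fold change of -2.07 ± 0.10 (SE, limma adjusted p = 2.00e-06). It was 3.01-fold lower in TLX+siTLX than in CTL+siCTL (-1.59 ± 0.10, adjusted p = 3.84e-06). The siRNA comparison went the other way and was smaller, with NR2F1 1.40-fold higher in TLX+siTLX than in TLX+siCTL (0.48 ± 0.10, adjusted p = 0.00788).

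NR2F2 (ENSG00000185551, chromosome 15, 96325938 to 96340263, plus strand) encodes COUP-TFII, known for vein identity and for stromal and mesenchymal cells. It was highest in TLX+siTLX and lowest in control cells. Its log2 CPM was 7.98, 8.22 and 7.98 in TLX+siTLX, 7.36, 7.33 and 7.52 in TLX+siCTL, and 6.04, 5.90 and 5.86 in CTL+siCTL. The 3 groups did not overlap. Set against control cells, NR2F2 was 2.77-fold higher in TLX+siCTL (log2 fold change 1.47 ± 0.08, adjusted p = 3.73e-06). It was 1.57-fold higher in TLX+siTLX than in TLX+siCTL (0.65 ± 0.08, adjusted p = 0.000550) and 4.36-fold higher there than in control cells (2.13 ± 0.08, adjusted p = 3.07e-07). NR2F2 thus rose in both steps, while NR2E1 rose with overexpression and fell with its siRNA.

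NR2F6 (ENSG00000160113, chromosome 19, 17231883 to 17245940, minus strand), the most distant of the COUP-TFs and a known repressor in lymphocytes, had log2 CPM values of 5.91, 6.00 and 6.29 in TLX+siTLX, 6.08, 5.97 and 6.00 in TLX+siCTL, and 6.05, 6.05 and 6.08 in CTL+siCTL. The groups overlapped in every comparison, and S9 was the highest of all libraries. The log2 fold change was -0.05 in TLX+siCTL against CTL+siCTL (95% interval -0.25 to 0.15, adjusted p = 0.757). It was 0.05 in TLX+siTLX against TLX+siCTL (-0.15 to 0.25, adjusted p = 0.754) and 0.00 against CTL+siCTL (-0.19 to 0.20, adjusted p = 1). The intervals reach changes of 0.25 in size on the log2 scale. Without S9 the values for TLX+siTLX were -0.06 against TLX+siCTL (adjusted p = 0.413) and -0.11 against CTL+siCTL (adjusted p = 0.113). AC010646.1, which overlaps NR2F6 on the same strand, shared 192 of the 2645 31-base words of NR2F6 (7.26%) and was near the floor, at a mean log2 CPM of -3.84.

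**Figure D1:**
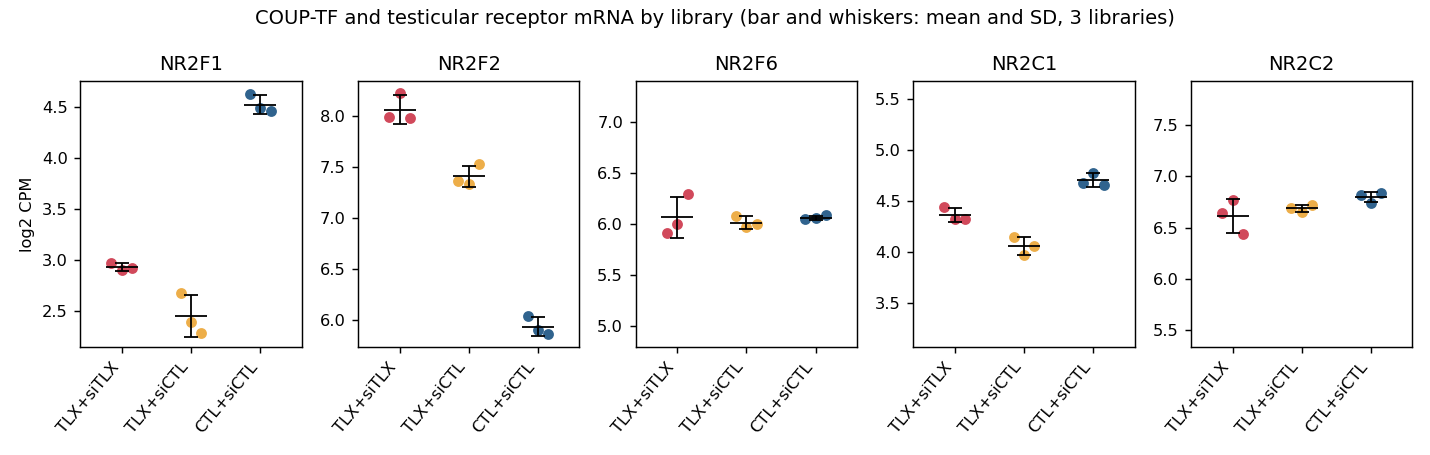
Log2 CPM of each receptor gene (y axis, all panels spanning the same range) in each library (points) of TLX+siTLX, TLX+siCTL and CTL+siCTL, with the mean and SD of 3 libraries as bar and whiskers. NR2F1 is lowest in TLX+siCTL at 2.28 to 2.68 and highest in CTL+siCTL at 4.46 to 4.62, NR2F2 is highest in TLX+siTLX at 7.98 to 8.22, while NR2F6 spans 5.91 to 6.29 and NR2C2 6.43 to 6.83.

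Of the testicular receptors, NR2C1 changed in the same directions as NR2F1 but less, and NR2C2 passed the threshold in no comparison. NR2C1 (ENSG00000120798, chromosome 12, 95020229 to 95073703, minus strand) encodes TR2, which pairs with TR4 in a repressor complex at embryonic and fetal globin genes. Its log2 CPM was 4.44, 4.32 and 4.32 in TLX+siTLX, 4.15, 3.97 and 4.06 in TLX+siCTL, and 4.68, 4.78 and 4.65 in CTL+siCTL. The groups did not overlap, with TLX+siTLX between the others. NR2C1 was 1.56-fold lower in TLX+siCTL than in CTL+siCTL (log2 fold change -0.64 ± 0.06, adjusted p = 7.11e-05). It was 1.23-fold higher in TLX+siTLX than in TLX+siCTL (0.30 ± 0.06, adjusted p = 0.00778) and 1.27-fold lower than in CTL+siCTL (-0.34 ± 0.06, adjusted p = 0.00242).

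NR2C2 (ENSG00000177463, chromosome 3, 14947584 to 15053600, plus strand) encodes TR4, a regulator of lipid and glucose metabolism in mice. Its log2 CPM was 6.64, 6.77 and 6.43 in TLX+siTLX, 6.69, 6.66 and 6.72 in TLX+siCTL, and 6.81, 6.74 and 6.83 in CTL+siCTL. TLX+siTLX overlapped both other groups, while TLX+siCTL lay just below CTL+siCTL. The log2 fold change was -0.11 ± 0.07 in TLX+siCTL against CTL+siCTL (95% interval -0.28 to 0.06, adjusted p = 0.367). It was -0.08 ± 0.07 in TLX+siTLX against TLX+siCTL (-0.25 to 0.09, adjusted p = 0.548) and -0.18 ± 0.07 against CTL+siCTL (-0.35 to -0.01, adjusted p = 0.0971). The last of these passed the threshold when rows whose mean log2 CPM reached 1 were tested alone (adjusted p = 0.0419) and without S8 (-0.26, adjusted p = 0.0208), and without S9 it was -0.09 (adjusted p = 0.204).

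Of the 5 members, 3 passed limma's adjusted p threshold of 0.05 in TLX+siCTL against CTL+siCTL, NR2F2 higher and NR2F1 and NR2C1 lower, where 30.1% of all 27548 rows (15.0% higher, 15.1% lower) and 56.6% of the 12564 rows whose mean log2 CPM reached 1 passed it. The same 3 genes were higher in TLX+siTLX than in TLX+siCTL, where 23.7% of all rows (12.7% higher, 10.9% lower) and 45.8% of the better measured rows passed. They passed again in TLX+siTLX against CTL+siCTL, NR2F2 higher and the other two lower, where 34.6% of all rows (17.7% higher, 17.0% lower) and 63.6% of the better measured rows passed. A count of 3 in 5 is near the share among the better measured rows, so the number of members called is no result about the family. In size, the change of NR2F1 in TLX+siCTL against CTL+siCTL was larger than that of 99.2% of the better measured rows, and the change of NR2F2 larger than that of 97.1%. In TLX+siTLX against CTL+siCTL the figures were 96.3% for NR2F1 and 98.3% for NR2F2. In TLX+siTLX against TLX+siCTL they were 82.1% for NR2F1 and 90.2% for NR2F2. NR2C1 lay at 83.4% in TLX+siCTL against CTL+siCTL, at 64.8% in TLX+siTLX against TLX+siCTL and at 52.2% in TLX+siTLX against CTL+siCTL. The ranges of the 3 libraries did not overlap for 4 members in TLX+siCTL against CTL+siCTL, where 41.4% of all rows and 71.6% of the better measured rows did not overlap. They did not overlap for 3 members in TLX+siTLX against TLX+siCTL (33.9% of all rows and 58.3% of the better measured) and for 3 in TLX+siTLX against CTL+siCTL (42.2% and 71.1%). The median log2 fold change over all rows was 0 in each comparison. The comparisons share groups and are not independent of each other.

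**Figure D2:**
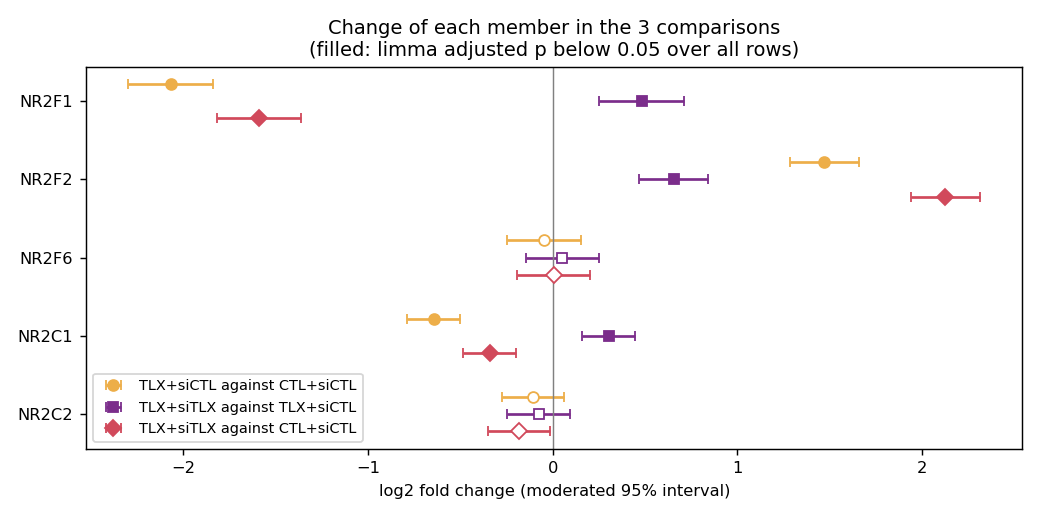
Log2 fold change of each receptor gene (x axis) in the 3 comparisons, with moderated 95% intervals as bars and filled symbols for a limma adjusted p under 0.05. NR2F1 and NR2F2 lie on opposite sides of 0 against CTL+siCTL, at -2.07 and 1.47 in TLX+siCTL and at -1.59 and 2.13 in TLX+siTLX, and both lie above 0 in TLX+siTLX against TLX+siCTL.

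Levels were set beside each other per kilobase of exon (CPM divided by the length of all exons in GENCODE 29), since longer genes give more reads. In CPM per kb, NR2F2 averaged 41.4 ± 4.08 in TLX+siTLX, 26.3 ± 1.90 in TLX+siCTL and 9.47 ± 0.635 in CTL+siCTL (SD, n = 3 each). NR2F6 averaged 25.2 ± 3.60, 24.2 ± 1.01 and 25.0 ± 0.334 in the same groups. By this measure NR2F6 was the most abundant of the 5 in control cells. In TLX+siTLX NR2F2 was, at 39.0 to 46.1 against 22.4 to 29.3 for NR2F6. The length of all exons need not be that of the transcripts expressed, and orders, shares and ratios between genes rest on it. In CPM, NR2C2 was the highest in control cells, at 111 against 66.8 for NR2F6. In TLX+siCTL the ranges of NR2F2 (24.9 to 28.4) and NR2F6 (23.4 to 25.3) overlapped, but within each library NR2F2 was higher. The gap was smallest in S4, where they made up 39.9% and 39.8% of the 5 genes together. NR2C2 averaged 8.32 ± 0.949, 8.73 ± 0.197 and 9.40 ± 0.319 CPM per kb, and in control cells it overlapped NR2F2. NR2C1 averaged 3.15 ± 0.159, 2.55 ± 0.161 and 3.99 ± 0.184, and NR2F1 averaged 1.77 ± 0.0446, 1.28 ± 0.186 and 5.34 ± 0.334. NR2F1 was the lowest of the 5 in both TLX-overexpressing groups, and in control cells it lay above NR2C1 with no overlap. In CPM this order in control cells was reversed, with NR2F1 at 23.0 and NR2C1 at 26.0.

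The 5 genes together came to 75.1, 84.0 and 80.4 CPM per kb in TLX+siTLX, 63.7, 60.5 and 64.9 in TLX+siCTL, and 54.1, 52.5 and 52.9 in CTL+siCTL. The groups did not overlap. NR2F2 made up 51.8% ± 3.20 of the sum in TLX+siTLX, 41.7% ± 1.99 in TLX+siCTL and 17.8% ± 0.956 in CTL+siCTL (SD, n = 3 each). NR2F1 made up 2.23% ± 0.183, 2.03% ± 0.298 and 10.0% ± 0.490. The ratio of NR2F2 to NR2F1 per kb was 21.5, 26.5 and 22.2 in TLX+siTLX, 17.1, 20.4 and 25.2 in TLX+siCTL, and 1.78, 1.78 and 1.76 in CTL+siCTL. It did not overlap between control cells and either TLX-overexpressing group, and it overlapped between the TLX-overexpressing groups. Sums and ratios were not tested. In bulk RNA, fewer cells with a transcript and less of it per cell cannot be told apart.

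**Figure D3:**
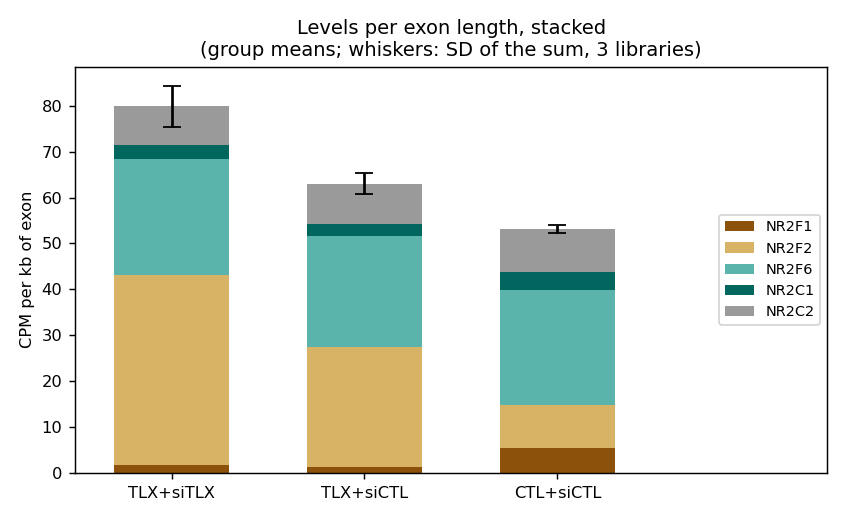
CPM per kb of exon (y axis) of the 5 receptor genes stacked as group means for TLX+siTLX, TLX+siCTL and CTL+siCTL, with the SD of the sum over 3 libraries as whiskers. The sum averages 79.9, 63.0 and 53.2, the NR2F2 share grows from right to left, and the NR2F6 part stays at 24.2 to 25.2.

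In the authors' deposited table the signed fold changes of NR2F1 were -4.19 for TLX+siCTL against CTL+siCTL, 1.39 for TLX+siTLX against TLX+siCTL and -3.02 for TLX+siTLX against CTL+siCTL, where a fall is minus the inverse ratio. For NR2F2 the authors' deposited table gives 2.77, 1.57 and 4.35 in that order. For NR2C2 in TLX+siTLX against CTL+siCTL the authors' deposited table gives -1.14 with a false discovery rate of 0.0864.

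No analysed neighbour passed the threshold in the direction of its member in every comparison in which that member was called. FAM172A, 23.5 kb beyond NR2F1, gave log2 fold changes of -0.16 in TLX+siCTL against CTL+siCTL (adjusted p = 0.217), 0.12 in TLX+siTLX against TLX+siCTL (adjusted p = 0.423) and -0.04 in TLX+siTLX against CTL+siCTL (adjusted p = 0.757), the signs of NR2F1 but with no value past the threshold. ARRDC3, on the other side and 2199.9 kb away, gave 0.08, 0.00 and 0.09. MCTP2, the nearest protein-coding gene below NR2F2 but 1842 kb away, fell in TLX+siCTL (-2.38 ± 0.31, adjusted p = 0.000367) and in TLX+siTLX (-2.21 ± 0.31, adjusted p = 0.000444) against CTL+siCTL, opposite to NR2F2. SPATA8, on the other side of NR2F2, was not analysed here. Both neighbours of NR2C1, NDUFA12 and FGD6, were higher in TLX+siTLX than in TLX+siCTL (0.27 and 0.35, adjusted p = 0.0120 and 0.00722), as was NR2C1 (0.30). Against CTL+siCTL they were also higher in TLX+siTLX (0.32 and 0.28, adjusted p = 0.00311 and 0.0157), while NR2C1 was lower. MRPS25, which overlaps NR2C2 on the opposite strand, rose in TLX+siCTL (0.45, adjusted p = 0.00331) and in TLX+siTLX (0.43, adjusted p = 0.00372) against CTL+siCTL. Next to NR2F6, OCEL1 gave -0.23, -0.08 and -0.31 in the 3 comparisons in the order given for FAM172A, and FGD5, next to NR2C2, had a mean log2 CPM of -3.25. Neither passed the threshold. The antisense genes NR2F1-AS1 and NR2F2-AS1 were not analysed here. The library kit keeps the strand, but the sources used here do not state whether the authors' counting used it.

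Searched on both strands in RefSeq promoter windows (GRCh38.p14, from 250 bases before to 50 after a start), the half-sites AAGTCA, reported for TLX, and AGGTCA, the common nuclear receptor half-site, gave 0 matches in the 6 windows of NR2F1, NR2F2, NR2C1 and NR2C2. The NR2F2 windows, 96332315 to 96332614 and 96333515 to 96333814, lay inside the gene, which starts at 96325938. The window at 96332315 held the coding bases of the NR2F2 finger shown above. The bases before the NR2F2 start at 96325938 were not searched, so the 0 matches say nothing about them. The NR2F1 window at 93586849 also lay inside its gene. NR2F6 had no window. Of all 35116 windows, 12.5% held AAGTCA and 13.8% held AGGTCA, and no place can match both.

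The genes with the nearest profiles were taken from 11886 genes by Euclidean distance between log2 CPM profiles over the 9 libraries, each centred on its own mean. Nearest to NR2F1 were NRG1, a ligand of EGFR family receptors (distance 0.253), SEL1L3 (0.353) and IL11, a cytokine of the IL6 family (0.368). NRG1 averaged 5.73 in TLX+siTLX, 5.22 in TLX+siCTL and 7.28 in CTL+siCTL. Nearest to NR2F2 were SNAI2, a transcription factor of epithelial-mesenchymal transition (0.331), MTFR2 (0.390) and HTRA1, a secreted protease (0.398). SNAI2 averaged 6.55, 5.76 and 4.43 in the same groups. Nearest to NR2C1 were C2orf74 (0.177), ZFP36L2, which promotes mRNA decay (0.188), and the annexin ANXA1 (0.196). NR2F6 was nearest to BTBD6 (0.0942), SGSM3 (0.121) and B4GALT7 (0.138), and NR2C2 to ZBTB1 (0.0852), SGMS2 (0.120) and ACVR1B (0.130), which are small distances because these profiles are nearly flat. Among the members, NR2F1 and NR2F2 were the farthest apart (5.16) and NR2F6 and NR2C2 the nearest (0.557). With 9 libraries in 3 groups, such distances mostly rank genes by their group means.

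**Figure D4:**
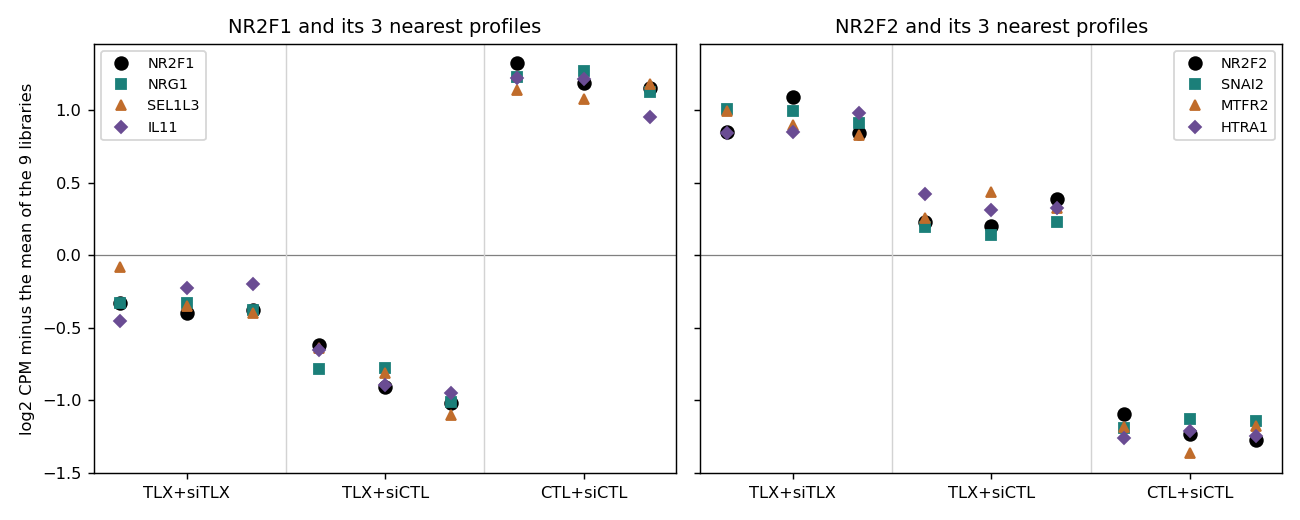
Log2 CPM minus the gene's own mean (y axis) in each library of TLX+siTLX, TLX+siCTL and CTL+siCTL for NR2F1 with NRG1, SEL1L3 and IL11 (left) and for NR2F2 with SNAI2, MTFR2 and HTRA1 (right), 1 point a library. The genes on the left are lowest in TLX+siCTL and those on the right highest in TLX+siTLX.

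The counts over each list that follow take in genes whose mean log2 CPM was below 1. Beside them stand the shares of all rows called in TLX+siCTL against CTL+siCTL, 30.1% (15.0% higher, 15.1% lower), in TLX+siTLX against TLX+siCTL, 23.7% (12.7% higher, 10.9% lower), and in TLX+siTLX against CTL+siCTL, 34.6% (17.7% higher, 17.0% lower). Among the better measured rows the shares were 56.6%, 45.8% and 63.6%. The mean reached 1 in 3 of the 7 other NR2 receptors, in 9 of the 11 COUP-TF cofactors and in all 11 TR2 and TR4 cofactors.

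Of the other NR2 receptors, which include the partners of the members, 1 was higher and 2 were lower of 7 in TLX+siCTL against CTL+siCTL, with a median log2 fold change of -0.16. NR2E1, the overexpressed gene, was higher (4.35 ± 0.47, adjusted p = 0.000133), at a low mean log2 CPM of -2.39. It was near the floor in control cells, at a mean of -4.46. HNF4G was lower (-1.71 ± 0.17, adjusted p = 8.88e-05), as was HNF4A (-1.63 ± 0.33, adjusted p = 0.00481) at a low mean log2 CPM of -2.26. After the siRNA against TLX, NR2E1 was lower than in TLX+siCTL (-2.48 ± 0.47, adjusted p = 0.00494) and RXRA, which encodes a retinoid X receptor that pairs with COUP-TFs, was higher (0.17 ± 0.05, adjusted p = 0.0354). Relative to control cells, TLX+siTLX had NR2E1 (1.86, adjusted p = 0.0134) and RXRA (0.25, adjusted p = 0.00323) higher and HNF4G (-1.86, adjusted p = 3.80e-05), HNF4A (-2.54, adjusted p = 0.000286) and RXRB (-0.25, adjusted p = 0.0344) lower. RXRB is on 6 rows of the table, so its value is uncertain. RXRG and NR2E3 were near the floor and passed in no comparison, with means of -4.89 and -2.82. RXRA had log2 CPM values of 6.77, 6.91 and 6.96 in TLX+siTLX, 6.70, 6.72 and 6.72 in TLX+siCTL, and 6.63, 6.61 and 6.65 in CTL+siCTL, a far narrower span than that of NR2F1 or NR2F2. The number of these receptors called ranged from 1 to 6, 1 to 2 and 3 to 5 over the other settings in the 3 comparisons, and without S9 it was 5 in TLX+siCTL against CTL+siCTL. The count of 1 in TLX+siCTL against CTL+siCTL came from testing only rows whose mean log2 CPM reached 1. That setting keeps 3 of the 7 receptors and leaves out NR2E1 and HNF4A.

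Of 11 COUP-TF cofactors, 1 was higher and 2 were lower in TLX+siCTL against CTL+siCTL (median log2 fold change -0.03). ZFPM2, the FOG2 corepressor of COUP-TFII, was lower (-1.50 ± 0.11, adjusted p = 1.66e-05), as was the histone deacetylase HDAC1 (-0.25 ± 0.03, adjusted p = 0.000488). HDAC2, also a histone deacetylase, was higher (0.71 ± 0.04, adjusted p = 3.57e-06). For TLX+siTLX against TLX+siCTL there were 1 higher and 2 lower (median -0.09). HDAC1 (0.15) rose, and the corepressor NCOR1 (-0.29) and the adaptor SQSTM1 (-0.68) fell. Without an intensity trend 1 cofactor was called there. TLX+siTLX against CTL+siCTL had 2 higher and 5 lower (median -0.14), with HDAC2 at 0.71 and ZFPM2 at -1.25, SQSTM1 at -0.74 and NCOR1 at -0.45, and 4 were called without S3. SQSTM1 is on 2 rows of the table and is uncertain.

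Of 11 TR2 and TR4 cofactors, 5 were higher and 2 lower in TLX+siCTL against CTL+siCTL, with a median log2 fold change of 0.22. NRIP1, a corepressor of TR2 known as RIP140, was lower (-1.34 ± 0.09, adjusted p = 1.16e-05), as was JAZF1, a repressor of TR4 (-0.82 ± 0.15, adjusted p = 0.00264). The maintenance methyltransferase DNMT1, a part of the TR2 and TR4 repressor complex, was higher (0.58 ± 0.07, adjusted p = 0.000215), as was NR2C2AP, which binds TR4 (0.33 ± 0.06, adjusted p = 0.00199). Comparing TLX+siTLX with TLX+siCTL gave 6 higher and 0 lower (median 0.21), among them the acetyltransferase KAT2B (0.77), DNMT1 (0.56), JAZF1 (0.53) and the corepressor RCOR1 (0.31). TLX+siTLX against CTL+siCTL had 7 higher and 1 lower (median 0.25), with DNMT1 at 1.14, KAT2B at 1.06, the corepressor TRIM28 at 0.57 and NRIP1 at -1.40.

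Of 21 reported COUP-TF targets, 17 were analysed, and the mean log2 CPM reached 1 in 10. In TLX+siCTL against CTL+siCTL, 5 were higher and 4 lower (median log2 fold change -0.16). The cell cycle factor E2F1 rose by 1.64 ± 0.05 (adjusted p = 4.03e-07) and the vessel ligand ANGPT1 by 0.85 ± 0.21 (adjusted p = 0.0138), while the Notch ligand JAG1 fell by 1.19 ± 0.04 (adjusted p = 5.76e-07) and the semaphorin and VEGF co-receptor NRP2 fell by 1.06 ± 0.07 (adjusted p = 1.09e-05). TLX+siTLX against TLX+siCTL had 8 higher and 0 lower (median 0.51), with NRP2 at 1.42 (adjusted p = 6.67e-06), ANGPT1 at 0.91 (adjusted p = 0.0128), E2F1 at 0.64 (adjusted p = 6.15e-05) and the chemokine receptor CXCR4 at 0.60 (adjusted p = 0.00719). The count of targets called there was 5 without S5 and 5 without S8. TLX+siTLX against CTL+siCTL had 6 higher and 2 lower (median 0.37), with E2F1 at 2.28 (adjusted p = 3.11e-08), ANGPT1 at 1.77 (adjusted p = 0.000177), the transcription factor SOX9 at 1.31 (adjusted p = 2.95e-07) and JAG1 at -0.62 (adjusted p = 6.34e-06). Many of these targets are known from mouse tissues, and which receptor acts on them here was not tested.

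Of 12 reported TR2 and TR4 targets, the mean log2 CPM reached 1 in 2, the lipoprotein gene APOC1 and the desaturase SCD. APOC1 was higher (0.93 ± 0.14, adjusted p = 0.00116) and SCD lower (-0.54 ± 0.06, adjusted p = 0.000172) in TLX+siCTL against CTL+siCTL, and 0 of the other 10 passed. In TLX+siTLX against TLX+siCTL, 0 were higher and 1 was lower, APOC1 (-0.61, adjusted p = 0.0155), and this count was 0 without S6 and 2 without S1. In TLX+siTLX against CTL+siCTL, 0 were higher and 2 were lower, SCD (-0.50, adjusted p = 0.000218) and APOE (-0.93, adjusted p = 0.0160). APOE had a mean log2 CPM of -0.23, and it is named after its value was seen because the count is small. The count was 4 without S1 in that comparison. The globin targets HBE1, HBG1 and HBG2 had means of -4.93, -3.68 and -5.27, near the floor of -5.33.

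**Figure D5:**
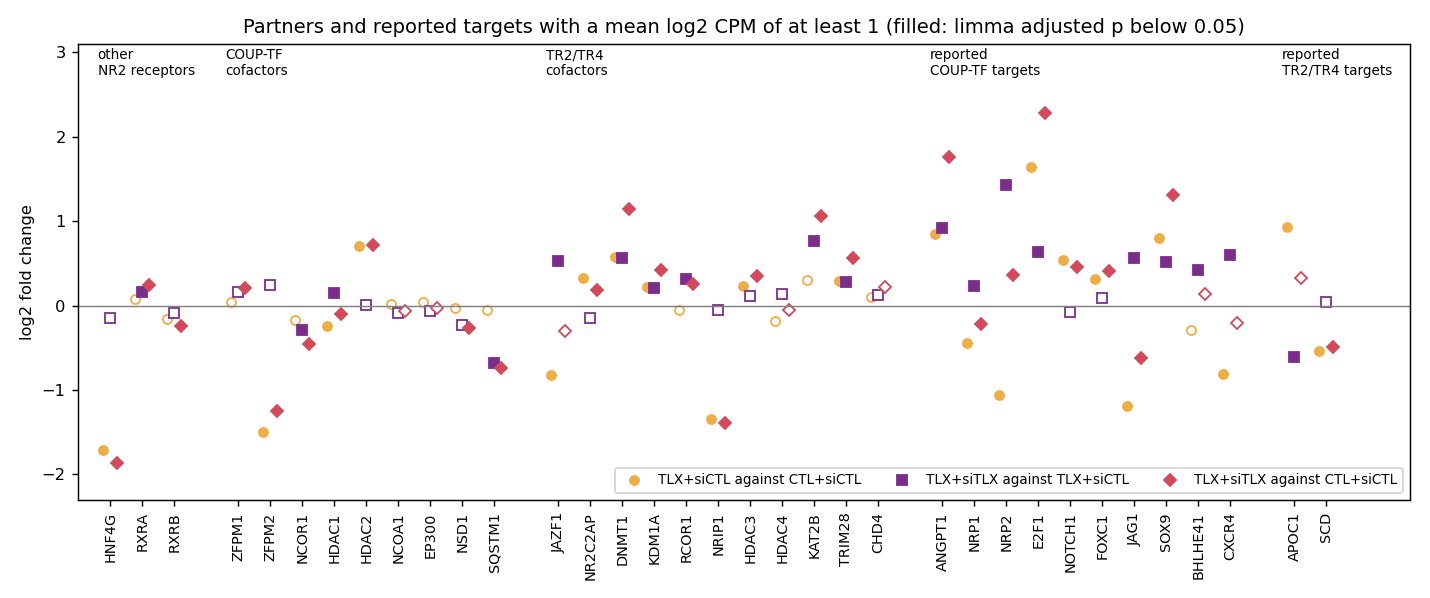
Log2 fold change (y axis) of listed partners and reported targets whose mean log2 CPM reached 1 (x axis, grouped by list) in the 3 comparisons, filled where the limma adjusted p was under 0.05. Most reported COUP-TF targets lie above 0 in TLX+siTLX against TLX+siCTL, with NRP2 at 1.42, and lie on both sides of 0 in TLX+siCTL against CTL+siCTL, with E2F1 at 1.64 and JAG1 at -1.19.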

How the data were processed

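RNA was sequenced from 9 libraries of MDA-MB-231 cells in 3 groups of 3. The submitters' processing notes name kallisto 0.44.0, edgeR, limma and the GRCh38 build without a role or order. The authors deposited log2 CPM values per gene and library, with a gene symbol for each row. A second table held Ensembl IDs and the authors' signed fold change score, p-value and false discovery rate per comparison. The sources used here do not state its test. Rows of the 2 tables were paired by order. The symbols were the same in every row, and the row means correlated at 0.99675. Columns of the log2 CPM values carry a group and a running number that no label holds, after which libraries are called S1 to S9. Unmapped columns numbered 0. The lowest log2 value, -5.33 in all libraries, fits a prior count of 2, which understates changes of genes with few reads. Library sizes and reads were rebuilt from that. Only 38.8% to 41.2% of low values lay within 0.01 of a whole read, so reads are estimates and no count test was run.

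The test was limma (3.58.1, R 4.3.3) on the deposited log2 values, with all 9 libraries in 1 fit, group means and an intensity trend, two-sided, Benjamini-Hochberg adjusted over 27548 rows, threshold 0.05. The script was tested on simulated data. Fold changes carry the moderated SE. Of a symbol on several rows, the row with the highest mean was used. Alternatives were a minimum mean log2 CPM of 1, the 2 groups alone, a pseudocount of 1, median centring, quantile normalization, no trend, library weights and each library left out. Coordinates, exon lengths and transcripts are from GENCODE 29, promoters from RefSeq. The members and lists were chosen with earlier results of these data known. All members and other NR2 receptors are named, and from each other list up to 4 genes a comparison, by the largest change among those called whose mean log2 CPM reached 1, with the nearest genes and the 3 nearest profiles. Some listed cofactors and markers are not reported here and enter no list count.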

Additional observations from a re-analysis of the deposited data

How the results depend on the processing

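Of 240 member values under other settings, 232 kept their direction and their side of the threshold, and the 9 calls of NR2F1, NR2F2 and NR2C1 were among these. The highest adjusted p of a called member over the settings was 0.0443, for NR2F1 in TLX+siTLX against TLX+siCTL. Direction changed 6 times, always for uncalled values near 0. NR2F6 in TLX+siTLX against CTL+siCTL was -0.0087 with library medians centred and -0.028 with array weights, and -0.108 to 0.084 with each library left out. In TLX+siTLX against TLX+siCTL, leaving out each library gave -0.061 to 0.131 for NR2F6 and -0.152 to 0.013 for NR2C2. NR2C2 in TLX+siTLX against CTL+siCTL passed among rows whose mean log2 CPM reached 1 (-0.18, adjusted p = 0.0419) and without S8, with -0.259 to -0.094 over the libraries left out and an adjusted p of 0.0208 to 0.243 over all settings. The cause was not tested. All 96 counts of called rows and members stayed within 1.5 times. Of 240 list counts, 26 moved by more, mostly of the other NR2 receptors, there by 1 to 3 genes. The setting with a minimum mean log2 CPM of 1 drops the listed genes below it, so some of these counts fell for that reason. No paired analysis was possible because the columns carry no replicate number of the labels. The SD between libraries exceeded the counting SD of the estimated reads except for NR2F1 in TLX+siTLX (0.0361 against 0.0578 on the log2 scale) and NR2F6 in CTL+siCTL (0.0193 against 0.0201).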
